A study of Mus musculus with 2 samples.

Results

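The genes described here are Myc and 31 genes of ribosome biogenesis and of the pyrimidine and polyamine synthesis that accompanies growth, 32 of the 55450 genes counted. They were found by matching their symbols in the gene lists of both libraries, and all 32 were present. MYC is a transcription factor that pairs with MAX and binds the E-box CACGTG, and in growing cells it drives the genes that build ribosomes. Ribosomes are assembled in the nucleolus, where RNA polymerase I transcribes the precursor ribosomal RNA, small nucleolar ribonucleoproteins (snoRNPs) modify it, and separate sets of factors shape the small and the large subunit. Microglia are the resident macrophages of the brain, and after depletion the remaining cells divide and refill the tissue.

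The cells were sorted from mouse brain at day 3 of microglial repopulation and profiled with 10x 3' v3 single-cell RNA sequencing. The Hk2 cKO library came from C57BL/6 mice whose floxed Hk2 gene, which encodes hexokinase 2, is a target of a tamoxifen-inducible Cre driven from the Cx3cr1 locus. The Hk2 fl/fl library came from C57BL/6 mice with the same floxed alleles, described without that Cre. Tamoxifen was given at 100 µg a day on consecutive days soon after birth, or at other times that the labels do not detail, and it is not known here whether the fl/fl mice received it. The age at sorting, the means of depletion, the number of animals per library and the floxed exons are also not known here. Each genotype has 1 library, and cells of 1 library are not replicates, so no difference below was tested. Every interval is an exact 95% interval that covers counting error only.

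The cKO library held 2607 barcodes with 32896996 UMIs (unique molecular identifiers, 1 per captured transcript), and the fl/fl library held 3089 barcodes with 37476201 UMIs. The libraries shared 2 barcodes. Microglia-like cells were 2010 of 2300 kept cKO cells (87.4%) and 2474 of 2824 kept fl/fl cells (87.6%), with medians of 12009 and 10192.5 UMIs. The microglial markers Fcrls, P2ry12, Siglech and Tmem119 summed to 2752 CPM (UMIs per 1000000 UMIs) in cKO and 2698 CPM in fl/fl cells. They are among the markers that named the class, so these sums are no separate check of it. Ribosomal protein genes, which are no members, took 14.96% and 15.43% of UMIs. Hk2 stood at 43.5 CPM (41.1 to 46.0) in the library labelled cKO and 166 CPM (162 to 171) in the fl/fl library, although a 3' tag outside the deleted part would not report the deletion. The fl/fl library was not uniform in mt-Nd3 and its nuclear copy Gm28438, and the members are given with and without that difference near the end.

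An E-box in the start region is the sequence feature most often tied to MYC, so the start regions were searched for it. RefSeq start regions (GRCm38.p6, 250 bases before to 50 after each start) were at hand for 25 of the 32 members, in 27 windows, since a gene can have more than 1 start. Those not matched were Myc, Npm1, Fbl, Srm, Rrs1, Bop1 and Rrp12. The motif CACGTG, which reads the same on both strands, lay in a window of 5 of the 25 members (20.0%), of 2187 of all 27025 genes (8.09%) and of 19 of 88 other ribosome biogenesis genes (21.6%). In the 250 bases before the start alone, 1 of the 25 members (4.0%), 1854 of all genes (6.86%) and 11 of the 88 other ribosome biogenesis genes (12.5%) held it. These are matches of letters and not sites of binding.

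The 5 matches are printed so that their place can be set beside the values below, in lower case with the motif in capitals. Nop2 (chr6:125131811-125131840, plus strand) carried it with its first base 60 bases before the start. The other matches began after the start, at base 38 in Utp20 (chr10:88826765-88826789, minus strand), base 3 in Pes1 (chr11:3963965-3963994, plus strand), base 41 in Mybbp1a (chr11:72441355-72441376, plus strand) and base 18 in Wdr43 (chr17:71616220-71616249, plus strand).
Nop2: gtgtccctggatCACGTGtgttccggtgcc
Utp20: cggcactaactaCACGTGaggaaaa
Pes1: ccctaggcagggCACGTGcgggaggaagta
Mybbp1a: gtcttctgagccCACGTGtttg
Wdr43: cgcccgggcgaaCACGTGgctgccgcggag

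The 32 genes lie on 18 chromosomes, 4 of them on chromosome 11. Of the 32, 11 overlap an annotated gene on the other strand (Mybbp1a, Nop56, Dkc1, Nhp2, Wdr43, Nop14, Rrp9, Bop1, Pes1, Wdr12 and Gnl3), and 8 host a small nucleolar RNA gene on their own strand (Ncl, Nop56, Nop58, Dkc1, Wdr43, Ppan, Gnl3 and Odc1). Counting in overlaps is not described in the sources used here, so values of these genes carry that doubt. Mrto4 has named pseudogene copies that could share its reads.

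Over all microglia-like cells, the members stood at nearly the same level in both genotypes. A member is called measured at a mean of at least 10 CPM, and a difference is called when the higher value is at least 25% above the lower, with 1 CPM added to each, and the counting intervals do not overlap. Of 30 measured members, 12 were higher and 18 lower in cKO cells, and 0 were called in either direction, where 3.29% of 7812 measured genes were called higher and 2.47% lower. No test was run, so there is no p-value beside that count. The median log2 ratio of cKO over fl/fl was -0.04 for the members and -0.04 for all measured genes. The 31 members without Myc summed to 2829.9 CPM (2810.4 to 2849.5) in cKO and 2878 CPM (2859.9 to 2897) in fl/fl cells, a sum weighted to genes with many UMIs, Npm1 and Ncl above all.

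Myc itself (ENSMUSG00000022346, chromosome 15, 61985391 to 61990374, plus strand, GRCm38) stood at 13.8 CPM (12.5 to 15.2) in cKO and 15.6 CPM (14.3 to 17.1) in fl/fl microglia-like cells, from 392 and 512 UMIs. Its intervals overlapped, and its log2 ratio was -0.17. After each cell was thinned to 5000 UMIs, a Myc UMI was seen in 113 of 1830 cKO cells (6.17%, 5.12 to 7.38) and 150 of 2254 fl/fl cells (6.65%, 5.66 to 7.76), and without thinning in 14.0% and 14.9%. In neutrophil-like cells, thinned likewise, it was seen in 1 of 66 cKO and 1 of 61 fl/fl cells (1.52% and 1.64%), with 3.37% and 6.10% before thinning, at medians of 9772 and 8637.5 UMIs. Few single cells therefore report Myc at this depth.

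**Figure D1:**
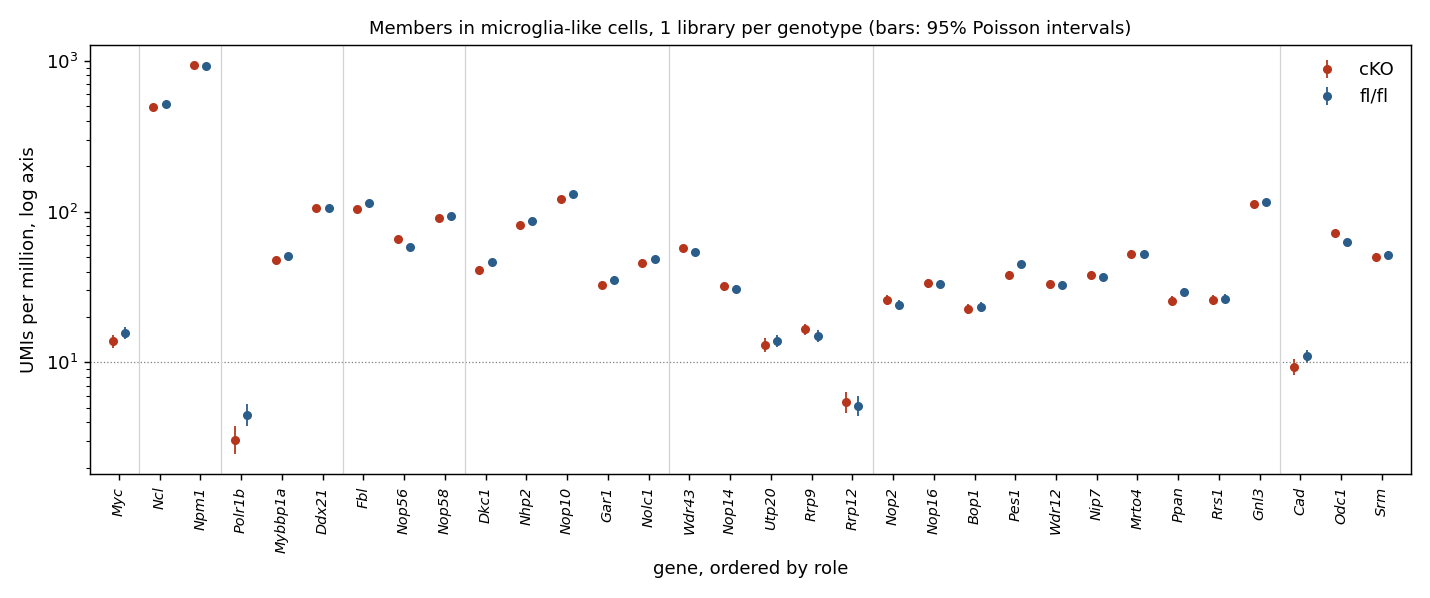
Level of each of the 32 members in microglia-like cells, in CPM on a log axis, ordered by role with grey vertical lines between roles. Points are the cKO and fl/fl libraries, bars are 95% Poisson intervals and the dotted line marks 10 CPM; the points of each pair lie close together, with Npm1 at 938 CPM in cKO and 925 CPM in fl/fl cells at the top and Polr1b at 3.06 and 4.49 CPM at the bottom.

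The plot of levels by role shows how small the genotype differences were over all microglia-like cells. The nucleolar histone chaperone Npm1 stood at 938 CPM (926 to 949) in cKO and 925 CPM (914 to 935) in fl/fl cells, and nucleolin, Ncl, which binds precursor rRNA, at 490.2 CPM (482 to 498) and 518 CPM (509.8 to 525). Among the genes of ribosomal RNA synthesis, Ddx21, an RNA helicase, stood at 105 CPM in both libraries, and Mybbp1a, a nucleolar protein that binds MYB, at 47.5 CPM (45.0 to 50.1) in cKO and 51.0 CPM (48.5 to 53.5) in fl/fl cells. Polr1b, a large subunit of RNA polymerase I, was under the measured level, at 3.06 CPM (2.45 to 3.78, 87 UMIs) in cKO and 4.49 CPM (3.79 to 5.28, 147 UMIs) in fl/fl cells, with intervals barely apart and a log2 ratio of -0.44.

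The H/ACA snoRNPs turn uridines of ribosomal RNA into pseudouridine. Their members, with the snoRNP chaperone Nolc1 counted among them, were lower in cKO cells in 5 of 5 cases, by little. Of all 7812 measured genes, 4786 were lower in cKO cells. Dkc1, the pseudouridine synthase (ENSMUSG00000031403, X chromosome), stood at 40.9 CPM (38.6 to 43.3) in cKO and 46.2 CPM (43.9 to 48.6) in fl/fl cells, a log2 ratio of -0.17. The core protein Nop10 stood at 121 CPM (117 to 125) and 131 CPM (127 to 135), and the log2 ratios of Nhp2, Gar1 and Nolc1 lay between -0.10 and -0.07. Intervals of Dkc1 and Nop10 were apart, yet both differences were under 25%. How many of all genes had intervals apart without the 25% rule was not counted, here or for other members. The C/D snoRNPs guide methylation of ribosomal RNA. Of their proteins, the methyltransferase Fbl had a log2 ratio of -0.13, the scaffold Nop58 one of -0.04 and its partner Nop56 one of 0.18. Nop56 stood at 65.9 CPM (63.0 to 69.0) in cKO and 57.9 CPM (55.4 to 60.6) in fl/fl cells. These 3 proteins of that particle thus did not lean one way.

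Of 4 measured small-subunit factors, 3 were higher in cKO cells. Wdr43, Nop14 and Utp20 are parts of the small-subunit processome, and Rrp9 belongs to the U3 snoRNP within it. Their log2 ratios were 0.09 for Wdr43, 0.05 for Nop14, 0.13 for Rrp9 and -0.08 for Utp20, and Rrp12, an export factor in yeast, was not measured, at 5.45 CPM in cKO and 5.13 CPM in fl/fl cells. The 10 large-subunit factors split into 5 higher and 5 lower. Pes1, which forms the PeBoW complex with Bop1 and Wdr12, stood at 37.8 CPM (35.6 to 40.1) in cKO and 44.6 CPM (42.4 to 47.0) in fl/fl cells, a log2 ratio of -0.23. Its partners had log2 ratios of -0.04 for Bop1 and 0.00 for Wdr12, so the subunits of that complex did not share the difference. Ppan, the homologue of yeast Ssf1, had a log2 ratio of -0.19, and the other 6 (Nop2, Nop16, Nip7, Mrto4, Rrs1 and Gnl3) lay between -0.04 and 0.10.

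The enzymes went different ways. Odc1, ornithine decarboxylase, which makes putrescine, stood at 72.4 CPM (69.3 to 75.6) in cKO and 63.1 CPM (60.4 to 65.8) in fl/fl cells, a log2 ratio of 0.20 with intervals apart. Srm, spermidine synthase, which uses that putrescine, stood at 50.1 CPM (47.5 to 52.8) and 51.9 CPM (49.4 to 54.4). Cad, which carries the first steps of pyrimidine synthesis, stood at 9.32 CPM (8.24 to 10.5) and 10.97 CPM (9.86 to 12.2). Only the intervals of Odc1 were apart among the 3, and its difference was under 25%.

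Genes outside the members gave a like picture, with few exceptions. Of 92 measured other ribosome biogenesis genes, 30 were higher and 62 lower in cKO cells (median -0.05), and 1 was called, Krr1, which was lower by a log2 ratio of -0.45. Of 37 other MYC targets, 13 were higher and 24 lower (median -0.01), and Nampt, the rate-limiting enzyme of NAD salvage, was called higher at 65.7 CPM in cKO against 50.8 CPM in fl/fl cells. Of 8 measured factors of the MYC network, 1 was higher and 7 lower (median -0.15). Mxd4, which competes with MYC for MAX, was called lower at 72.9 CPM (69.8 to 76.1) in cKO against 92.5 CPM (89.3 to 95.9) in fl/fl cells. The related MAX partner Mnt stood at 33.7 CPM in cKO and 41.0 CPM in fl/fl cells.

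Dividing and nondividing cells differed far more than the genotypes did over all microglia-like cells. Between cells with Gm28438 alone, a split described near the end, the genotype median was -0.28. Cells were scored after thinning to 5000 UMIs and called cycling where 3 or more of 12 G2/M genes, or 3 or more of 12 S-phase genes, were seen, lists that hold no member. Cycling cells were 716 of 1830 cKO cells (39.1%, 36.9 to 41.4) and 1007 of 2254 fl/fl cells (44.7%, 42.6 to 46.8), while 180 cKO and 220 fl/fl cells were too shallow to score. At the threshold lay 159 cKO and 235 fl/fl cells, and 253 and 388 cells lay just under it. Cycling cells were also deeper, with medians of 15451 UMIs in cKO and 13337 in fl/fl, against 11846.5 and 9522 in noncycling cells.

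Every measured member was higher in cycling than in noncycling cells, in both libraries. In the cKO library 29 of 29 were higher and 22 were called, where 22.4% of 7769 measured genes were called higher and 20.5% lower, and the median log2 ratio was 0.58 against -0.01 for all measured genes. In the fl/fl library 30 of 30 were higher and 23 were called, where 20.6% of 7803 genes were called higher and 12.1% lower, and the median was 0.63 against 0.02. The 31 members without Myc summed to 3354 CPM (3322 to 3385) in cycling and 2392 CPM (2367 to 2417) in noncycling cKO cells, and to 3306 CPM (3279 to 3333) in cycling and 2409 CPM (2384 to 2434) in noncycling fl/fl cells. The cycling intervals lay above the noncycling ones in each library. At an equal depth of 5000 UMIs, a cycling cell showed a median of 8 members other than Myc and a noncycling cell 6, in cKO and fl/fl alike.

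**Figure D2:**
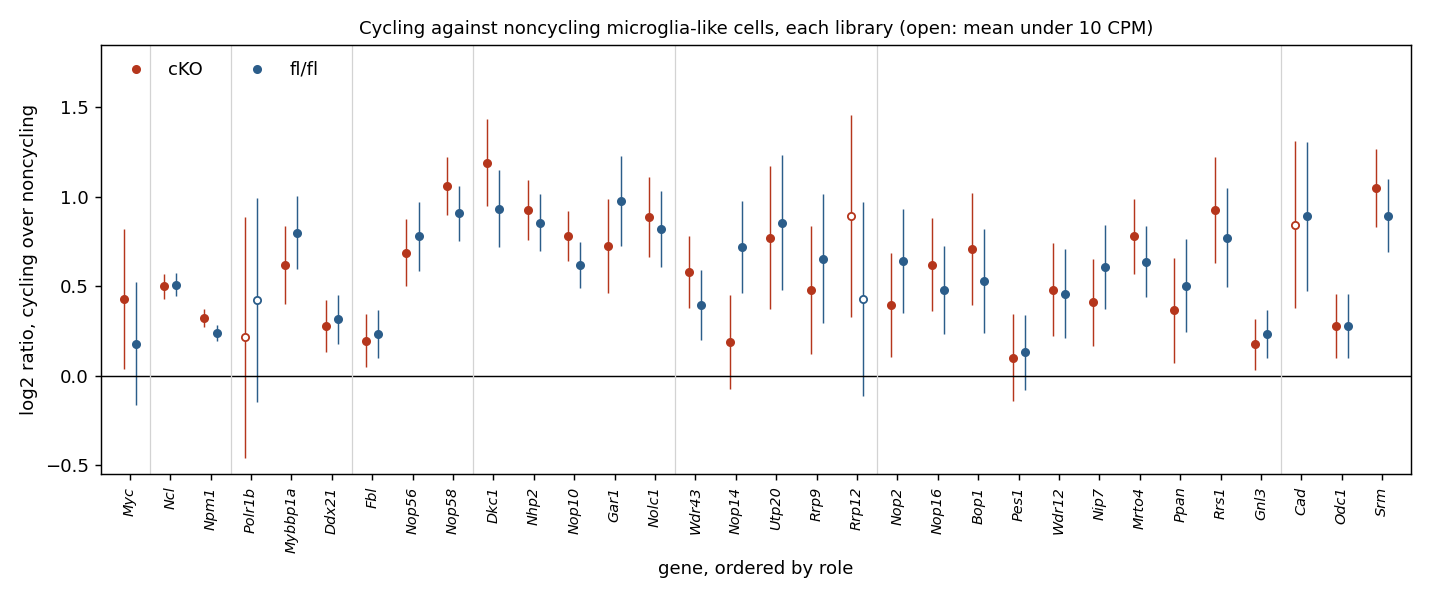
Log2 ratio of cycling over noncycling microglia-like cells for each member, with 1 CPM added, in the cKO and the fl/fl library. Bars run from the lower limit of cycling over the upper limit of noncycling cells to the reverse, and open points mark members with a mean under 10 CPM; the ratios of Dkc1 (1.19 in cKO, 0.93 in fl/fl) and Srm (1.05 and 0.89) are high and those of Pes1 (0.10 and 0.13) are low in both libraries.

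As the plot of cycling ratios shows, all 5 H/ACA members were called higher in cycling cells of both libraries, with medians of 0.89 in cKO and 0.85 in fl/fl. Dkc1 stood at 59.2 CPM (55.1 to 63.5) in cycling and 25.4 CPM (22.9 to 28.1) in noncycling cKO cells, a log2 ratio of 1.19, and at 60.2 CPM (56.6 to 64.0) and 31.04 CPM (28.3 to 34.0) in fl/fl cells, a log2 ratio of 0.93. Nhp2 stood at 111 CPM (105 to 116) in cycling and 57.8 CPM (54.0 to 61.8) in noncycling cKO cells, and at 110.0 CPM (105 to 115) and 60.4 CPM (56.5 to 64.5) in fl/fl cells. Nhp2, Nop10 and Gar1 are core proteins of the particle beside Dkc1. Nop10 stood at 157 CPM (149.9 to 164) in cycling and 90.8 CPM (86.0 to 95.8) in noncycling cKO cells, and at 158 CPM (152 to 164) and 102 CPM (97.2 to 108) in fl/fl cells. Gar1 (ENSMUSG00000028010) stood at 41.9 CPM (38.5 to 45.6) against 25.01 CPM (22.5 to 27.7) in cKO and at 45.8 CPM (42.6 to 49.1) against 22.8 CPM (20.4 to 25.4) in fl/fl cells. In none of these pairs did the cycling and noncycling intervals overlap. Nolc1, a chaperone of snoRNPs, had log2 ratios of 0.89 and 0.82. No test compared this group with the other members.

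The C/D particle was split. Nop58 (ENSMUSG00000026020) stood at 128 CPM (122 to 134) in cycling and 60.8 CPM (57.0 to 64.9) in noncycling cKO cells, and at 121 CPM (116 to 126) and 64.0 CPM (60.0 to 68.3) in fl/fl cells. Nop56 was also called in both libraries, with log2 ratios of 0.69 and 0.78. The methyltransferase Fbl was not called, at 112 CPM (107 to 118) against 97.9 CPM (92.9 to 103) in cKO and 122 CPM (117 to 128) against 104 CPM (98.9 to 109) in fl/fl cells.

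Both nucleolar chaperones were higher in cycling cells, to unlike degrees. Ncl stood at 584 CPM (570.4 to 597) in cycling and 413 CPM (403 to 423) in noncycling cKO cells, and at 604 CPM (592 to 615) and 424 CPM (414 to 435) in fl/fl cells. Npm1 stood at 1052 CPM (1035 to 1070.1) against 842 CPM (828 to 857) in cKO and at 999 CPM (984 to 1014) against 847 CPM (833 to 862) in fl/fl cells; neither difference reached 25%, while Ncl was called in both libraries. Among the genes of ribosomal RNA synthesis, Mybbp1a had log2 ratios of 0.62 in cKO and 0.80 in fl/fl cells, and Ddx21 ones of 0.28 and 0.31. Polr1b, the polymerase I subunit among them, was under the measured level in both libraries.

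Small-subunit factors had medians of 0.53 in cKO and 0.69 in fl/fl cells. Utp20 stood at 17.2 CPM (15.05 to 19.7) in cycling and 9.70 CPM (8.18 to 11.4) in noncycling cKO cells, and at 17.8 CPM (15.9 to 19.9) and 9.40 CPM (7.90 to 11.1) in fl/fl cells. Nop14 (ENSMUSG00000036693) was called in the fl/fl library alone, at 34.3 CPM (31.2 to 37.7) against 30.02 CPM (27.3 to 32.9) in cKO and 37.9 CPM (35.0 to 40.9) against 22.7 CPM (20.3 to 25.2) in fl/fl cells. The noncycling level was higher in cKO with intervals apart, and the cycling level was lower in cKO with intervals that overlap. Nop14 was the 1 member called between the genotypes within noncycling cells (449 cKO and 335 fl/fl UMIs, a log2 ratio of 0.39), and the difference between the 2 cycling ratios was not tested. That call was lost with the cycling threshold at 2 or 5 of 12 genes, with cycling scored at 2500 UMIs, in sums of thinned cells and between cells with UMIs of Gm28438 and none of mt-Nd3, a split described near the end.

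Large-subunit factors had medians of 0.45 and 0.52, with 8 of 10 called in each library. Rrs1, which places the 5S particle in yeast, had log2 ratios of 0.92 and 0.77, with 34.8 CPM (31.6 to 38.2) in cycling and 17.9 CPM (15.8 to 20.1) in noncycling cKO cells. Mrto4, whose yeast counterpart holds the place of the stalk protein, had log2 ratios of 0.78 and 0.63. Pes1 and Gnl3 were not called in either library. Pes1 stood at 39.3 CPM (36.0 to 42.9) against 36.6 CPM (33.6 to 39.8) in cKO and at 46.8 CPM (43.6 to 50.2) against 42.7 CPM (39.4 to 46.1) in fl/fl cells, and Gnl3, nucleostemin, had log2 ratios of 0.18 and 0.23. The partner of Pes1 in PeBoW, Bop1, was called in both libraries, with log2 ratios of 0.71 and 0.53, and Wdr12 likewise with 0.48 and 0.46. The 5 members with the E-box in the start region spread over the range, with Pes1 lowest and Utp20 (0.77 and 0.86) highest of them in each library, and Nop2 (0.39 and 0.64), Wdr43 (0.58 and 0.39) and Mybbp1a between.

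Among the enzymes, Srm (ENSMUSG00000006442) stood at 69.9 CPM (65.4 to 74.6) in cycling and 33.3 CPM (30.4 to 36.4) in noncycling cKO cells, and at 66.7 CPM (62.9 to 70.7) and 35.4 CPM (32.5 to 38.6) in fl/fl cells. A Srm UMI was seen in 27.7% of cycling and 12.7% of noncycling thinned cKO cells, and in 26.1% and 11.9% of fl/fl cells, against 3.03% of cKO and 3.28% of fl/fl neutrophil-like cells thinned likewise. Cad stood at 12.4 CPM (10.6 to 14.5) against 6.49 CPM (5.26 to 7.91) in cKO, below the measured level on average, and at 14.4 CPM (12.6 to 16.3) against 7.30 CPM (5.99 to 8.82) in fl/fl cells. Odc1 differed less, with log2 ratios of 0.28 in both libraries, and with all cells thinned to one depth its cKO ratio was -0.05. The enzyme that makes spermidine and the one that makes its precursor therefore had unlike ratios.

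Myc differed less between the states than the median member, in both libraries. It stood at 16.0 CPM (13.9 to 18.3) in cycling and 11.6 CPM (9.97 to 13.5) in noncycling cKO cells, a log2 ratio of 0.43 that was called. In fl/fl cells it stood at 16.4 CPM (14.5 to 18.4) and 14.3 CPM (12.5 to 16.4), a log2 ratio of 0.18 with overlapping intervals. Thinned cells with a Myc UMI were 6.70% of cycling and 5.83% of noncycling cKO cells, and 7.25% and 6.17% of fl/fl cells.

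The lists of other ribosome biogenesis genes and other MYC targets were mostly higher in cycling cells too, and most measured factors of the MYC network lay the other way. Of other ribosome biogenesis genes, 83 of 93 in cKO and 86 of 92 in fl/fl cells were higher in cycling cells, 48 and 50 were called, and the medians were 0.34 and 0.39. Lyar stood at 64.6 CPM in cycling and 28.1 CPM in noncycling cKO cells, and Pa2g4 at 159 and 75.1 CPM, whereas Nop53, Sbds and Nsa2 had ratios between -0.24 and -0.11 over both libraries. Of other MYC targets, 36 of 38 and 36 of 37 were higher, 34 and 31 were called, and the medians were 0.74 in both; Ranbp1, a partner of the Ran GTPase, stood at 361 CPM in cycling and 116 CPM in noncycling cKO cells. Of the MYC network, 7 of 8 measured factors were lower in cycling cells of each library and 5 and 3 were called. Mxd4 stood at 44.3 CPM in cycling and 96.6 CPM in noncycling cKO cells, and at 64.9 and 122 CPM in fl/fl cells. Immediate early genes, which dissociation of tissue can induce, were lower in cycling cells in 17 of 17 cases, with sums of 7131 CPM in cycling and 10588 CPM in noncycling cKO cells and of 8175 and 10734 CPM in fl/fl cells; their part in the cycling difference was not tested.

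Between the genotypes the members' medians were close to 0 over all cells of each state. They were less so within single clusters and in the split by mt-Nd3 and Gm28438 given near the end. In cycling cells 17 of 30 measured members were higher and 13 lower in cKO, 0 were called, where 2.96% of 7813 genes were called higher and 4.93% lower (231 and 385 genes, or 272 and 297 with TMM scaling), and the median was 0.01. The ratios ran from -0.25 for Pes1 to 0.22 for Odc1. In noncycling cells 12 of 28 were higher and 16 lower, and the median was -0.04. Nop14 was the 1 called, where 4.26% of 7644 genes were called higher and 2.59% lower. The genotypes were not matched in the scoring genes within each state. In noncycling cells the 5 measured G2/M genes were all lower in cKO and 4 were called (median -0.64). Of 6 measured S genes, 1 was higher and 5 lower (median -0.26). In cycling cells 8 of 12 G2/M genes (median 0.08) and 11 of 12 S genes (median 0.11) were higher in cKO. The part of this in the members' ratios was not tested. Myc stood at 16.0 CPM in cKO and 16.4 CPM in fl/fl cycling cells, and at 11.6 CPM and 14.3 CPM in noncycling cells. Over the 10 microglia-like clusters the median ratio of the members ran from -0.25 in cluster 1 (5 higher, 22 lower; -0.05 for all genes) to 0.13 in cluster 11 (21 higher, 9 lower; -0.01 for all genes), with 0.10 in cluster 0 (21 higher, 7 lower). The genotypes were also spread unevenly over the clusters. Cluster 5, led by Ifit3 and Rsad2, held 14.8% of cKO and 2.30% of fl/fl cells. Cluster 3, led by Atcayos and Dlg4 and with mt-Nd3 among its top genes, held 5.82% and 13.7%. The part of this spread in the members' values was not tested.

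Within the cell cycle, the members leaned toward S phase. Cells positive for S genes only (247 cKO, 307 fl/fl) were set beside G2/M-positive cells (469 cKO, 700 fl/fl). In the cKO library 21 of 30 measured members were higher in S-only cells and 5 were called, where 7.46% of genes were called higher and 6.1% lower, with a median of 0.13. In the fl/fl library 29 of 30 were higher and 6 were called, where 4.32% were called higher and 5.02% lower, with a median of 0.19. The sum without Myc was 3534 CPM (3479.7 to 3588) in S-only and 3253 CPM (3214 to 3292) in G2/M-positive cKO cells, and 3597 CPM (3545 to 3649) and 3182 CPM (3151 to 3214) in fl/fl cells. Called in both were Srm, Ppan, Nolc1 and Ddx21. Srm stood at 86.4 CPM (78.1 to 95.3) in S-only and 60.7 CPM (55.5 to 66.3) in G2/M-positive cKO cells, and at 83.7 CPM (76.0 to 92.0) and 59.5 CPM (55.2 to 64.0) in fl/fl cells. Ppan stood at 37.97 CPM (32.6 to 44.0) against 24.2 CPM (21.0 to 27.8) in cKO and at 42.3 CPM (36.9 to 48.4) against 30.8 CPM (27.7 to 34.1) in fl/fl cells. Dkc1 and Nop58, with high cycling ratios, had log2 ratios of S-only over G2/M-positive cells of only -0.01 and -0.05 in cKO and 0.17 and 0.19 in fl/fl cells. Myc was called in the cKO library, at 21.0 CPM (17.1 to 25.7) against 13.2 CPM (10.8 to 15.9), and stood at 17.95 CPM (14.5 to 22.0) against 15.7 CPM (13.5 to 18.1) in fl/fl cells.

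Noncycling cells were not all alike. The clusters were made from genes that included the members, and Srm is among the top genes of cluster 12, so the levels by cluster are a description. In noncycling cells of cluster 12, led by Il12b, Cxcl2 and Ccl7, the 31 members without Myc summed to 3168 CPM (3097 to 3239) in cKO and 3317 CPM (3238 to 3397) in fl/fl cells. In those of cluster 4, led by Adamts1, Otud1 and Hspb1, they summed to 3096 CPM (3001 to 3193) and 2950.4 CPM (2869 to 3034). In the other 4 clusters with at least 50 noncycling cells in each library the sums lay between 1947 and 2238 CPM. Clusters 12 and 4 were thus above the noncycling cells as a whole in both libraries, and the cluster 12 level in fl/fl cells reached that of cycling cells. Of scored cells, 51.2% in cKO and 54.4% in fl/fl were cycling in cluster 12, and 31.8% and 41.5% in cluster 4. Cluster 0 had 7.19% and 5.72%, while cluster 10, with a low sum, had 43.2% and 46.2%. The part in these sums of cells just under the cycling threshold was not tested. Noncycling cluster 12 cells were deep, with medians of 18557 UMIs in cKO and 16385 in fl/fl, and cluster 4 cells had medians of 12089 and 9053.

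**Figure D3:**
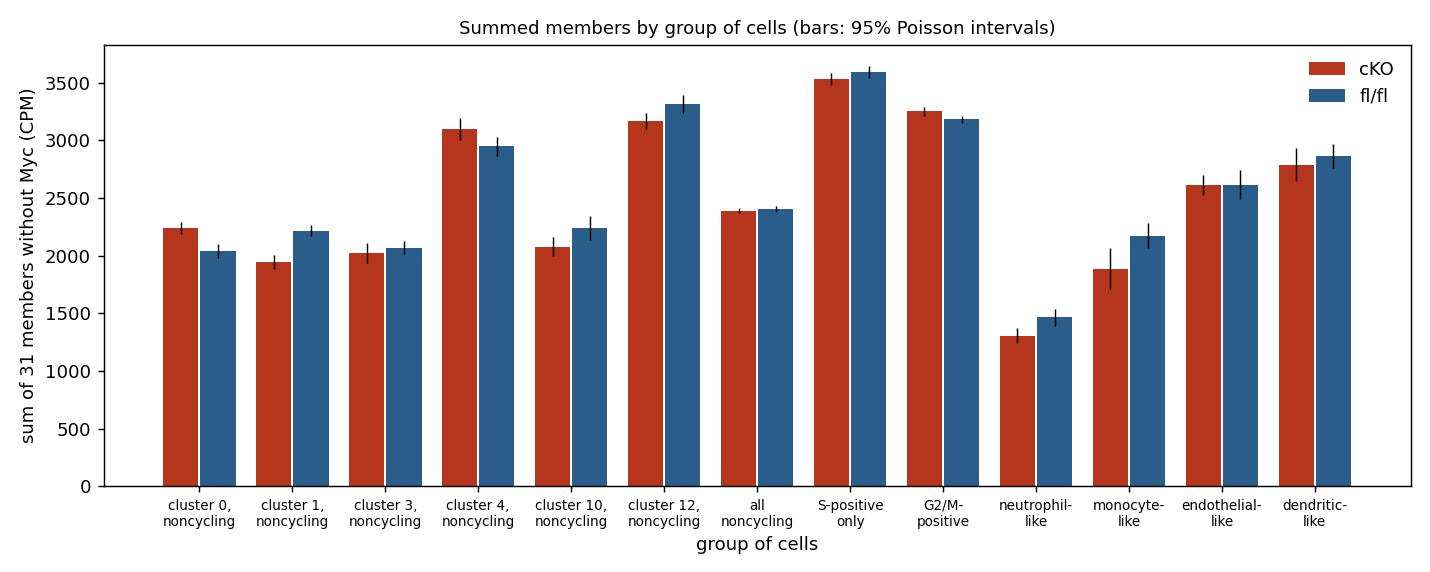
Sum of the 31 members without Myc, in CPM with 95% Poisson intervals, by group of cells, cKO left of fl/fl. S-positive-only microglia-like cells (3534 CPM in cKO, 3597 CPM in fl/fl) and G2/M-positive ones (3253 and 3182 CPM) stand above noncycling ones as a whole (2392 and 2409 CPM), and neutrophil-like cells (1307 and 1465 CPM) are lowest among the groups drawn.

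Most members were higher in both clusters than in other noncycling cells, but to unlike degrees. For cluster 12 these were 27 of 29 in cKO and 29 of 30 in fl/fl cells, and for cluster 4 they were 27 of 29 in each library. The like counts over all genes were not made, so these counts have no background beside them. In cluster 12, set against other noncycling cells, Srm stood at 71.9 against 25.8 CPM in cKO and 91.6 against 26.6 CPM in fl/fl cells, and Nhp2 at 109.7 against 47.7 CPM and 115 against 51.7 CPM. In cluster 4 Nop56 stood at 89.9 against 47.0 CPM in cKO and 72.5 against 37.7 CPM in fl/fl cells, log2 ratios of 0.92 in both, while its ratios in cluster 12 were 0.26 and 0.42. Wdr43 was high in both, with ratios of 0.98 and 0.92 in cluster 4 and 0.78 and 0.86 in cluster 12. Nop10 showed the contrast, with log2 ratios of 0.87 and 1.11 in cluster 12 and -0.10 and -0.26 in cluster 4. Myc did so in reverse, at 9.86 CPM (6.32 to 14.7) in cKO and 10.4 CPM (6.43 to 15.9) in fl/fl cells of cluster 12, and 24.4 CPM (16.7 to 34.4) and 26.3 CPM (19.1 to 35.4) in cluster 4. The high sum of members in cluster 12 therefore went with a Myc level below that of noncycling cells as a whole in both libraries, with intervals that overlap.

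Cluster 0, led by Rrad and Klf2, had a low sum beside a Myc level that was not low. The sum was 2237 CPM (2185 to 2289.7) in cKO and 2040.4 CPM (1984 to 2098) in fl/fl cells, and Myc stood at 16.3 CPM (12.2 to 21.4) and 19.7 CPM (14.6 to 26.2), with intervals that overlap those of the other noncycling cells at 10.4 CPM (8.61 to 12.4) in cKO and 13.3 CPM (11.3 to 15.5) in fl/fl. Immediate early genes, of which Myc is not one in the list used, summed to 16339 and 17434 CPM there, against 7579 and 6889 CPM in cluster 12 and 11672 and 11645 CPM in cluster 4. Their part in the Myc level was not tested.

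The other members were not uniformly higher in cells in which Myc was seen. After thinning, Myc-positive cells were set beside Myc-negative cells of the same state and library. In noncycling cells 21 of 27 other members were higher in 65 Myc-positive cKO cells (median 0.41, against 0.11 for all genes; 1 called, where 3.03% of genes were) and 18 of 27 in 77 Myc-positive fl/fl cells (median 0.26, against 0.07; 2 called, where 2.81% were). Ncl was called in both, at 535 CPM (459 to 621) in Myc-positive against 389 CPM (372 to 406) in Myc-negative cKO cells, and 504 CPM (435 to 580.0) against 400.2 CPM (384 to 417) in fl/fl cells. In cycling cells the libraries differed, with 12 of 28 members higher in 48 Myc-positive cKO cells (median -0.07, against 0.11; 0 called higher, where 3.68% were) and 19 of 29 in 73 Myc-positive fl/fl cells (median 0.19, against 0.11; 4 called higher, where 2.73% were, and 0 lower, where 0.682% were). In cycling cKO cells Npm1 was called lower, at 804 CPM (695 to 926) against 1031 CPM (997 to 1066), where 1.35% of genes were called lower. Immediate early genes were higher in Myc-positive cells of all 4 groups, for example 14495 against 10782 CPM in noncycling cKO cells, and their part was not tested.

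Other cells of the sort had their own levels. Neutrophil-like cells (89 cKO, 82 fl/fl) were low in the members, with sums of 1307 CPM (1244 to 1372) in cKO and 1465 CPM (1390.2 to 1543) in fl/fl cells, and Npm1 at 406 and 469 CPM. Monocyte-like cells (34 and 77) summed to 1883 CPM (1715 to 2064) and 2169.9 CPM (2063 to 2280.5). Endothelial-like cells (94 and 53) summed to 2613 and 2615 CPM, and dendritic-like cells (36 and 56) to 2788 and 2864 CPM. Odc1 in monocyte-like cells stood at 160.4 CPM (114 to 219) in cKO and 110.2 CPM (87.3 to 137) in fl/fl cells, above its microglia-like level of 72.4 and 63.1 CPM. Microglial RNA was present in these classes, since the 4 microglial markers summed to 1201 and 1242 CPM in neutrophil-like, 1839 and 1845 CPM in endothelial-like and 1020 and 1404 CPM in dendritic-like cells. The sum in the monocyte-like class was 65.8 CPM in cKO and 1006 CPM in fl/fl, so it compares cells of unlike microglial content.

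In the median, the members differed more within the fl/fl library than between the genotypes. mt-Nd3 is a mitochondrial gene and Gm28438 a nuclear copy of it, and most cells showed UMIs of only 1 of the pair. Gm28438 alone was seen in 1708 cKO and 493 fl/fl microglia-like cells, and mt-Nd3 alone in 4 cKO and 1206 fl/fl cells. Both were seen in 49 cKO and 247 fl/fl cells. These groups were formed after the values of the pair had been seen, they are not groups of the study, and the source of the split was not tested.

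Within fl/fl, cells with Gm28438 alone held more of the members than cells with mt-Nd3 alone. Of 30 measured members 29 were higher and 23 were called, where 9.57% of 7805 genes were called higher and 4.36% lower, and the median log2 ratio was 0.45 against 0.05 for all measured genes. The sum without Myc was 3303 CPM (3257 to 3349) in Gm28438-alone and 2678 CPM (2653 to 2704) in mt-Nd3-alone fl/fl cells. Cells with Gm28438 alone were more often cycling, at 50% against 42.3%, but in noncycling cells 28 of 29 were again higher and 19 called, where 6.27% of genes were called higher and 3.45% lower, with a median of 0.49. In cycling cells 28 of 30 were higher and 12 called, where 6.51% of genes were called higher and 2.56% lower, with a median of 0.34. Of the other ribosome biogenesis genes 85 of 92 were higher, with a median of 0.27, and of the other MYC targets 36 of 37, with a median of 0.34. Cluster 4 held 22.3% of the Gm28438-alone and 5.89% of the mt-Nd3-alone fl/fl cells, and cluster 12 held 18.3% and 9.70%. Clusters 1 and 3 lay the other way, with 7.71% against 19.7% and 6.29% against 19.5%. The top genes of cluster 3 include mt-Nd3 and those of cluster 10 include Gm28438, so the clusters and the split are not independent. Median depths were alike, at 10919 and 10981.5 UMIs, and Hk2 stood at 154 CPM (144 to 164) and 171 CPM (165 to 177).

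The genotype ratio depended on which fl/fl cells were used. Set against fl/fl cells with Gm28438 alone, cKO cells with Gm28438 alone were lower in 30 of 30 measured members and 10 were called, where 7.87% of 7791 genes were called lower and 4.83% higher, with a median of -0.28 against -0.06 for all measured genes. Those called were Myc, Mybbp1a, Nop58, Dkc1, Gar1, Bop1, Ppan, Rrs1, Cad and Srm. Set against the mt-Nd3-alone fl/fl cells, the same cKO cells were higher in 25 of 29 members, and Nop56, Wdr43 and Odc1 were called, where 4.5% of genes were called higher and 2.8% lower, with a median of 0.12. The same turn was seen within each state. Against Gm28438-alone fl/fl cells, 28 of 30 members were lower in cycling cKO cells and 5 were called, where 6.36% of genes were called lower and 2.93% higher, and 26 of 29 were lower in noncycling cKO cells and 11 were called, where 5.35% were called lower and 5.09% higher. Against mt-Nd3-alone fl/fl cells, 26 of 30 were higher in cycling cKO cells and 3 were called, where 3.97% were called higher and 3.83% lower, and 23 of 28 were higher in noncycling cKO cells and 7 were called, where 5.23% were called higher and 2.89% lower. The direction of the list's median thus turned with the choice of fl/fl cells, and the pooled ratio lies between.

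**Figure D4:**
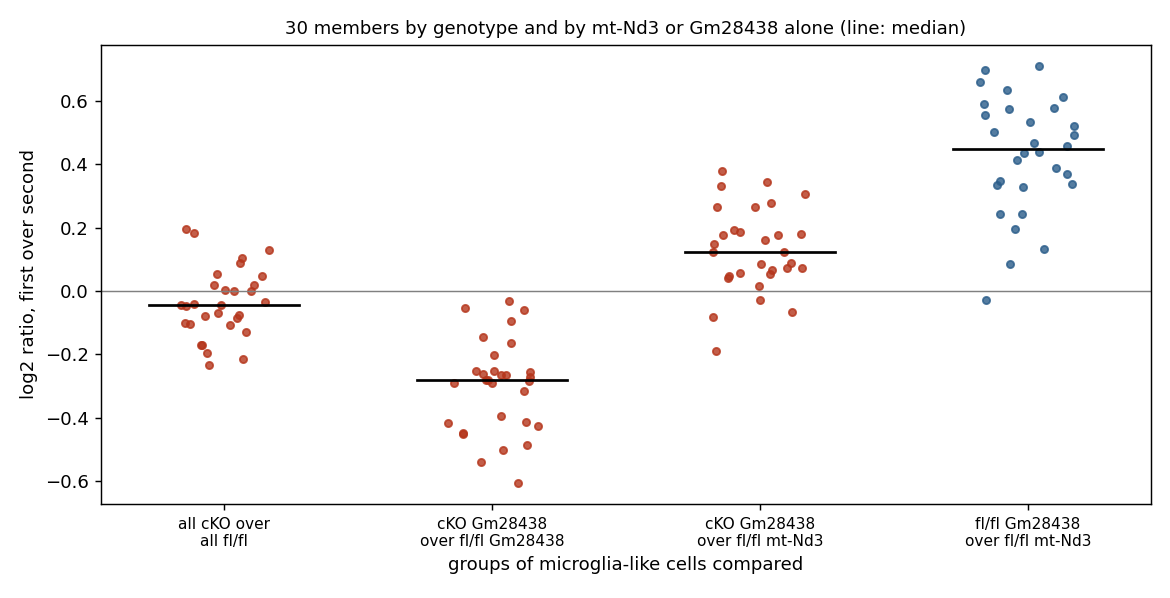
Log2 ratio of 30 members in microglia-like cells, 1 point each spread sideways. Red points stand for all cKO over all fl/fl cells, then cKO cells with Gm28438 alone over fl/fl cells with Gm28438 alone and over fl/fl cells with mt-Nd3 alone, and blue points for fl/fl cells with Gm28438 alone over fl/fl cells with mt-Nd3 alone. Lines are medians; the points lie below 0 in the second group, mostly above 0 in the third and nearly all above 0 in the fourth.

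Srm and Myc show the order. Srm stood at 51.2 CPM (48.5 to 54.1) in cKO cells with Gm28438 alone, 70.2 CPM (63.7 to 77.3) in fl/fl cells with Gm28438 alone and 42.5 CPM (39.4 to 45.8) in fl/fl cells with mt-Nd3 alone, so the cKO level lay between the fl/fl levels with all intervals apart. Myc stood at 13.1 CPM (11.7 to 14.6), 18.3 CPM (15.01 to 22.0) and 12.7 CPM (11.02 to 14.5) in the same order of groups, so the cKO cells were near the mt-Nd3-alone cells. Pes1 did not follow, at 38.4 CPM (36.0 to 40.9), 43.1 CPM (37.98 to 48.7) and 43.9 CPM (40.8 to 47.3). The genotype cannot be told apart from whatever makes the fl/fl cells differ. The difference between cycling and noncycling cells held in the Gm28438-alone cells, with 29 of 29 measured members higher in cKO (median 0.58) and 28 of 30 in fl/fl (median 0.52), Myc and Pes1 being lower in fl/fl, at log2 ratios of -0.23 and -0.30.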

How the data were processed

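Brain cells sorted for high CD11b and low CD45 were captured with the 10x 3' v3 kit, per the labels' protocols. The authors deposited raw UMI counts per gene and barcode with no normalization, made with bcl2fastq and Cell Ranger 3.1.0 on GRCm38, per the submitters' processing notes. Which annotation they used is not given here; the files' 55450 identifiers match GENCODE M21, used for positions.

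Barcodes needed 500 genes or more and no more than 10% mitochondrial UMIs (2301 cKO and 2826 fl/fl passed). Scrublet in scanpy 1.11.5 marked 1 (0.0435%) and 2 (0.0708%) of them, too few to have worked, so doublets largely remain. The remaining cells were clustered by Leiden (2000 variable genes, 30 components, 15 neighbours, resolution 0.8, igraph 0.11.9). A cluster took a class name with at least 3 markers of it in 25% of cells and 4-fold higher (10 CPM added), and was microglia-like where none did and 16 microglial markers were seen in 80% of cells on average; mural, choroid plexus and unnamed clusters were not used. Names were rebuilt here and could differ from the study's.

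Counts were summed over cells and divided by their total to CPM, with exact Poisson intervals, Clopper-Pearson intervals for shares, and ratios as log2 with 1 CPM added, which understates differences of low genes. Groups came from the genotype labels. No test was run, since each genotype has 1 library. The members, the other lists, the thresholds and the rule for named genes (all members; of other lists up to 4 highest and 4 lowest ratios and the 2 most abundant) were chosen with earlier results of these data known. Of 104 other ribosome biogenesis symbols, 103 were in the files. Alternatives were TMM scaling (edgeR 4.0.16, R 4.3.3), totals that leave out mitochondrial and ribosomal protein genes, 5 CPM added, other filters, resolutions, doublet removal, cycling thresholds and depths, and cells split by mt-Nd3 and Gm28438. The computation was checked on simulated counts. Work used Python 3.11.15, scipy 1.17.1, numpy 2.4.6, matplotlib 3.10.9 and pandas 2.3.3.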

Additional observations from a re-analysis of the deposited data

How the results depend on the processing

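The higher level of the members in cycling cells kept its direction under every alternative run: the median log2 ratio lay between 0.45 and 0.66 in cKO, with 17 to 25 members called, and between 0.43 and 0.67 in fl/fl, with 16 to 23 called. All genes called higher ran from 1399 of 7767 (thinned sums) to 2257 of 23019 (any UMI) in cKO. In fl/fl they ran from 1048 of 7813 (Gm28438 alone) to 2153 of 23110 (any UMI). The genotype values were less stable. Between cells with Gm28438 alone, the genotype median was -0.28 over all, -0.21 over cycling and -0.31 over noncycling cells, with 10, 5 and 11 members called lower and 0 noncycling ones called higher. Set against the mt-Nd3-alone fl/fl cells, chosen after seeing the data, the median over all cells was 0.12, with 3, 3 and 7 members called higher; the cause was not tested. The shares of all genes called in these splits are given above. Over all genes with any UMI, 1 member was called lower, Polr1b, because it then entered, where 434 of 25348 genes were called lower. In noncycling cells 2 members were called higher under a stricter cell filter (1000 genes, 5% mitochondrial UMIs), where 315 of 7656 genes were. At Leiden resolution 1.5, 1 member was called lower, where 203 of 7662 genes were. With the cycling threshold at 2 or 5 of 12 genes, or cycling scored at 2500 UMIs, 0 members were called higher. All genes called higher there were 314 of 7619, 289 of 7671 and 300 of 7683. The cause was not tested. Of 2240 values of single members, 154 differed from the value in the text beyond its counting interval and 0 called values changed sign. The interval of a ratio paired opposite limits, as in the plot of cycling ratios, and so was wide. Among measured members only Nop14 was called between the genotypes, so the count of sign changes hardly covers genotype values. Uncalled genotype values did turn with the fl/fl cells used. No paired analysis was possible because each genotype has 1 library. Counts limit Polr1b, Rrp12, Cad and Myc most, and the interval of no member covers the spread between animals.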
